A study of Nannospalax ehrenbergi and Mus musculus with 25 samples.

Results

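The genes described here are the integrin chains and the laminin chains, chosen by name alone. Every row of the *Spalax* and of the mouse expression table was taken whose symbol is that of an integrin alpha chain (Itga), an integrin beta chain (Itgb) or a laminin alpha, beta or gamma chain (Lama, Lamb, Lamc). The rule found 38 of the 27988 genes in the *Spalax* table and 37 of the 47593 genes in the mouse table, of which 37 were shared, since Lamb4 was found only in the *Spalax* table. They comprised 18 integrin alpha chains, 8 integrin beta chains, 5 laminin alpha chains, 3 laminin gamma chains and, in *Spalax*, 4 laminin beta chains.

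Integrins are receptors made of an alpha and a beta chain that hold a cell to the matrix around it, or to another cell, and pass signals in both directions. Laminins are secreted as a trimer of an alpha, a beta and a gamma chain and form the sheet of the basement membrane, which wraps each muscle fiber, vessel and epithelium. In skeletal muscle the fiber is anchored to this sheet by integrin alpha 7 beta 1 and by the dystroglycan complex, both of which bind the alpha 2 laminin chain, while leukocytes carry integrins of their own that pair with beta 2 or beta 7.

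Gene expression was measured by RNA-seq of neck muscle and of growths from the neck, in the blind mole rat *Spalax* (16 libraries) and in male C57BL/6 mice (9 libraries). The question was how tissue of animals that did or did not grow a tumor after the carcinogen 3-methylcholanthrene (3MCA) differed. *Spalax* were field-caught animals of about 2 years or of at least 10 years that received a single injection of 1 mg of 3MCA, and the mice were 3 to 4 months old and received 200 µg. The labels give no age by library.

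The 4 *Spalax* control libraries came from untreated females. The 4 *Spalax* tolerant libraries came from injected animals without a growth, sampled on the injected side after 18 months (males 2251 and 2261) or 30 months (male 2218 and female 2375). The authors describe the granulomas as benign growth of spindle cells with fibrosis, where inflammation had not fully resolved. The fibrosarcomas, malignant tumors of mesenchymal cells, are described as heavily inflamed with many dividing cells. Granuloma was sampled in females 600 (14 months) and 976 (16 months). Fibrosarcoma was sampled in female 2240 (18 months) and male 2230 (30 months). Each of these animals gave a library of the injected side (IS), which is the growth, and a library of the uninjected side (UIS). The mouse libraries were 3 untreated controls (1, 2 and 5) and the UIS and IS of 3 mice with fibrosarcoma, 1019 (14 weeks), 1023 (12 weeks) and 512 (11 weeks). The read-file name that the labels give for the granuloma UIS library of animal 976 carries a different animal number.

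Values are normalised counts, that is read counts that were divided by a size factor of each library. The depth, in recovered reads, was 17025447 to 23386729 for the *Spalax* libraries and 22143060 to 31179183 for those of mouse. The summed normalised count of the skeletal muscle fiber markers (Ckm, Acta1, Ttn and others) was 862007 or more in every library from control, tolerant or UIS tissue of either species and 68742 or less in every IS library. All IS libraries are labelled as muscle, and at least 3 of these markers reached a normalised count of 10 in each of them. In such bulk tissue, fewer cells of a type and less RNA per cell cannot be told apart. Some libraries stood apart from their group. Among mouse IS, animal 512 held the most muscle marker signal (68742 against 185 and 20516), granuloma UIS 976 held the least of the *Spalax* UIS libraries (935480), and tolerant 2251 had the least of all *Spalax* control and tolerant libraries (862007) together with the most leukocyte marker signal (9639 against 474.5 to 2788 in the others of those groups). Per the labels, control and tolerant libraries carry a pair of index sequences and those of tumor-bearing animals a single index in both species, so that the library preparation and the tumor-bearing state cannot be told apart where control and UIS are compared.

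**Figure D1:**
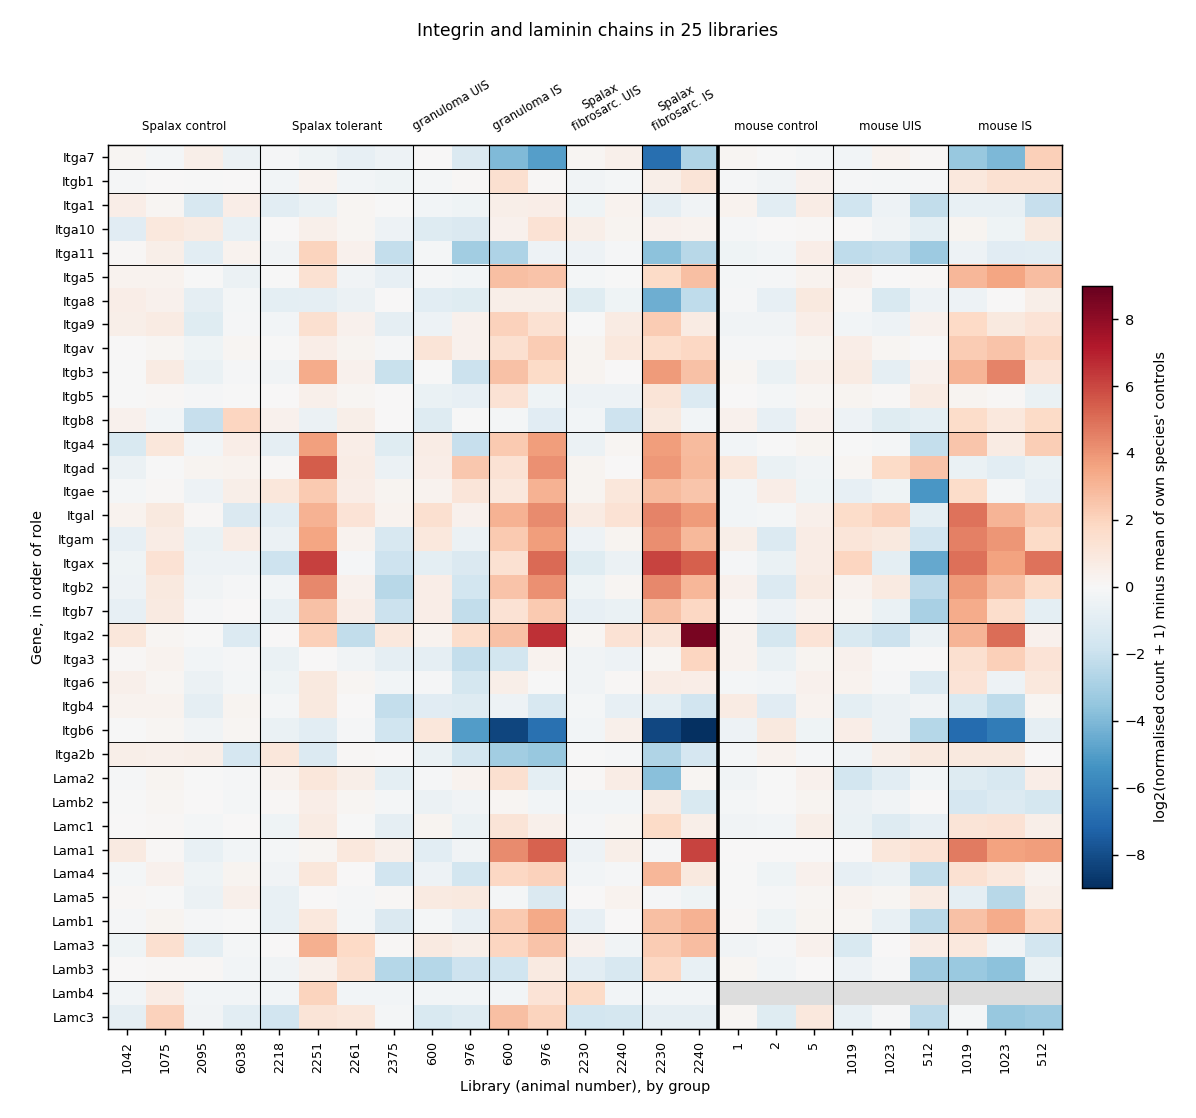
Level of integrin and laminin chains in each library, as log2(normalised count + 1) minus the mean of the controls of the same species (color), with genes in order of role and libraries in order of group. The *Spalax* IS columns and tolerant 2251 are red for the leukocyte integrins (Itga4 to Itgb7), and Itga7 and Itgb6 are blue in IS columns other than mouse 512 for Itga7. Grey marks Lamb4, which was read in the *Spalax* table only.

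The tested difference between IS and UIS came from limma on log2(value + 1) of the libraries compared, and a gene was taken as differentially expressed (DEG) at an adjusted p (Benjamini-Hochberg over all tested genes) no higher than 0.05. Fold changes below are on that log2 scale. In granuloma, 37 members passed the filter on low values, and 9 were DEGs, where 24.3% of all tested genes were. Of these 9, 8 were higher in IS (11.7% of all genes) and 1 was lower (12.6% of all genes). With all libraries the share of members called in granuloma was that of all genes. The count was 6 by edgeR, by the consensus of edgeR and DESeq2 and with no filter, and 20 by DESeq2 and when libraries were scaled by their total reads. A single model over all *Spalax* libraries called 13, with 7 of the 9 among them. The median log2 fold change of the members was 1.37, against -0.01 over all genes.

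In *Spalax* fibrosarcoma, 16 of 37 members were DEGs (36.3% of all genes), of which 12 were higher in IS (17.4% of all genes) and 4 lower (19% of all genes). The median was 1.17, against 0.03 over all genes. When libraries were scaled by their total reads, 19 members were DEGs, 18 higher and 1 lower. A single model over all *Spalax* libraries called 13, with 9 of the 16 among them. Leaving out 1 *Spalax* library leaves a side with a single library, which is then assumed to vary like the pair on the other side. Without UIS 2230 or without UIS 2240 no tested member was a DEG, and 18 or 21 genes were in all. Itgb6 was under the filter in both of these fits and was not tested. Without IS 2240 or IS 2230 more members were DEGs than with all libraries. Members under the filter in these fits, Itgax among them, were not tested.

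In mouse fibrosarcoma, 19 of 36 members were DEGs (45.1% of all genes), of which 18 were higher in IS (22.8% of all genes) and 1 lower (22.3% of all genes), with a median of 1.61 against 0.11 over all genes. Here the count fell to 11 without UIS 1023. Without IS 1019 or IS 1023, where Itga2 and Lama1 were under the filter and untested, the count fell to 8 or 10. In granuloma the count fell without UIS 976 and without IS 976. Without either IS library of granuloma, Lama1 and Lamc3 were under the filter and untested. Over the tumor comparisons of both species, 4 members were DEGs in all 3 of them (Itga5, Itgam, Itgb2 and Lamb1), 8 in 2, 16 in 1, and 10 in none. Of the 4, Itgam and Itgb2 lost their granuloma call by edgeR (adjusted p = 0.0590 and 0.0588) and the consensus, with no filter (adjusted p = 0.0613 and 0.0534) and in 1 model over all *Spalax* libraries (adjusted p = 0.0711 and 0.0542), while Itga5 and Lamb1 were called in all 3 comparisons under these settings. Where the values of IS and UIS are said below to lie apart, the same held for many genes. Over all tested genes, 35% lay wholly above and 34.8% wholly below UIS in granuloma IS, 37.9% and 36.4% in *Spalax* fibrosarcoma, and 31.1% and 29.2% in mouse.

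**Figure D2:**
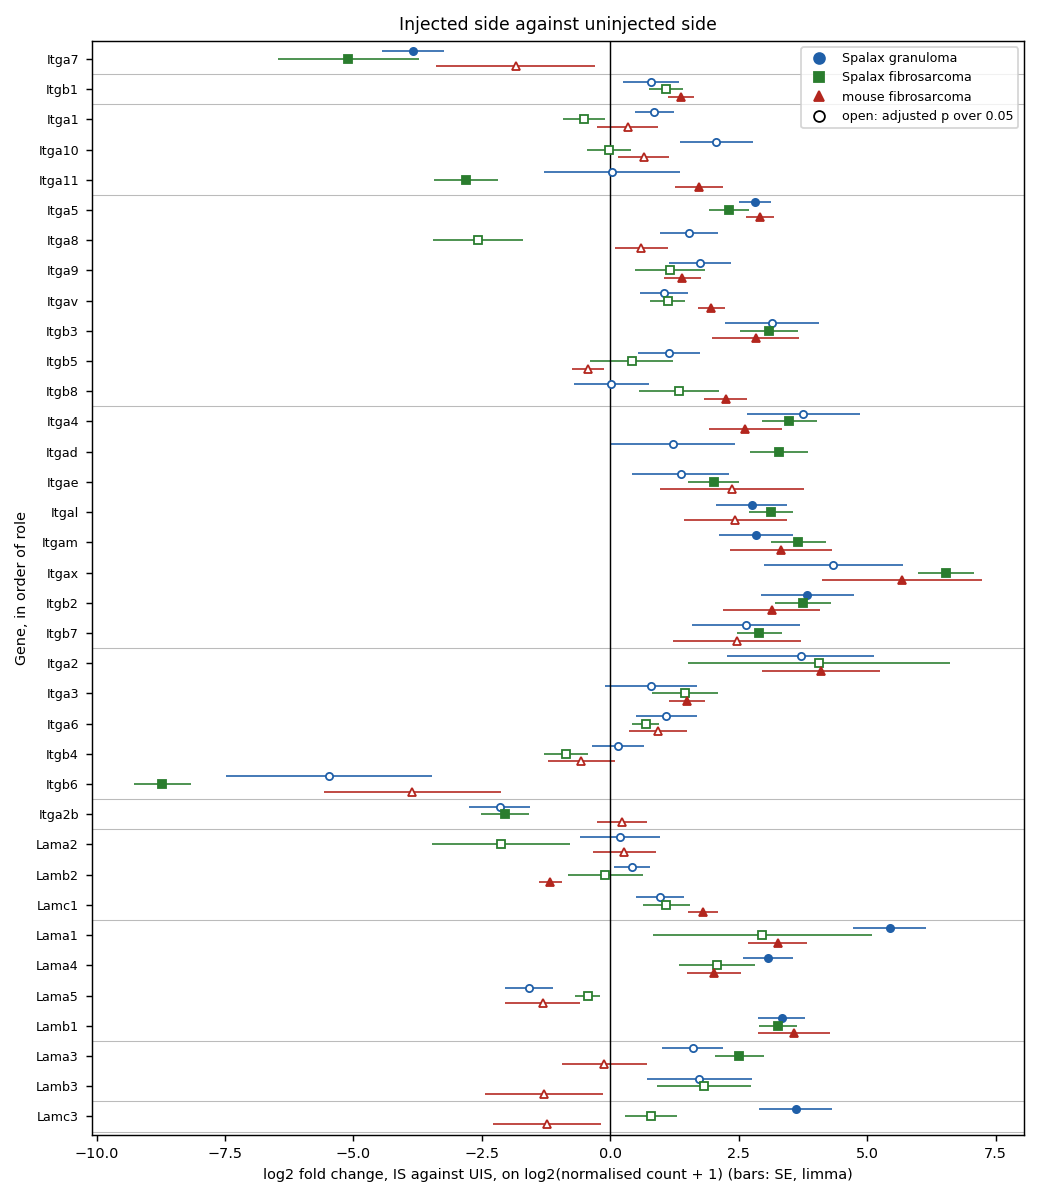
Log2 fold change of IS against UIS for members that passed the filter, in *Spalax* granuloma (circles), *Spalax* fibrosarcoma (squares) and mouse fibrosarcoma (triangles), with bars for the standard error from limma; filled symbols have an adjusted p of at most 0.05. The symbols of Itga5 and Lamb1 are filled and lie right of 0 in all 3 comparisons, and Itga11 lies left of 0 in *Spalax* fibrosarcoma and right of it in mouse.

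Itga7, the laminin-binding alpha chain of the muscle fiber, made up 46.7% to 66.9% of integrin alpha reads, not corrected for gene length, in the 4 *Spalax* controls. Its normalised count in granuloma was 6482 in UIS 600 and 2465 in UIS 976, against 385 in IS 600 and 199 in IS 976. Its *Spalax* fibrosarcoma values were 7044 in UIS 2230 and 8662 in UIS 2240, against 55.2 and 926 in the IS of the same animals. Both IS groups lay below all UIS, control (4287 to 8863) and tolerant (3635 to 5825) libraries. The gene fell by 3.85 ± 0.60 (SE, n = 2 and 2; adjusted p = 0.0149) in granuloma. In *Spalax* fibrosarcoma it fell by 5.10 ± 1.37 (SE, n = 2 and 2, adjusted p = 0.0466). This call was lost with edgeR's quasi-likelihood test on the recovered reads (adjusted p = 0.0817) and in its consensus with DESeq2. By limma it was also lost with no filter (adjusted p = 0.0725) and on scaling by total reads (adjusted p = 0.0582). Adding 0.1 rather than 1 to the values gave a limma adjusted p of 0.0529.

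In mouse the Itga7 values were 1637 (1019), 2444 (1023) and 2142 (512) in UIS and 182, 117 and 8625 in IS. IS 1019 and 1023 lay below all other mouse libraries and IS 512 above all of them, so that the groups overlapped. The log2 fold change of -1.84 ± 1.55 (SE, n = 3 and 3) missed the threshold (limma adjusted p = 0.364). Without IS 512 the difference was -3.80 (adjusted p = 0.00282). IS 512 also held more of the muscle transcript Ttn, which encodes titin (23372, against 105 and 3110 in the other IS libraries). Ttn was higher still in mouse UIS, where Itga7 was 1637 to 2444, at 217015 (1019), 177370 (1023) and 472863 (512). The part of remaining muscle in the Itga7 value of IS 512 was not tested.

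Itgb1 encodes the beta 1 chain, the common partner of the laminin, collagen and fibronectin receptors. It was 5662 to 6078 in the 3 mouse UIS libraries, 5341 to 8383 in mouse controls, and 12319 (1019), 16918 (1023) and 17099 (512) in mouse IS, with no overlap. It rose by 1.38 ± 0.26 (SE, n = 3 and 3; adjusted p = 0.00789 by limma). The *Spalax* fibrosarcoma libraries held 5395 and 6082 in UIS and 9709 (2230) and 15399 (2240) in IS, which lay apart, but the difference of 1.09 ± 0.33 missed the threshold (adjusted p = 0.0623). In granuloma IS 600 reached 18102 while IS 976 (7205) lay between UIS 600 (5908) and UIS 976 (7376), a difference of 0.79 ± 0.55 (adjusted p = 0.326).

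**Figure D3:**
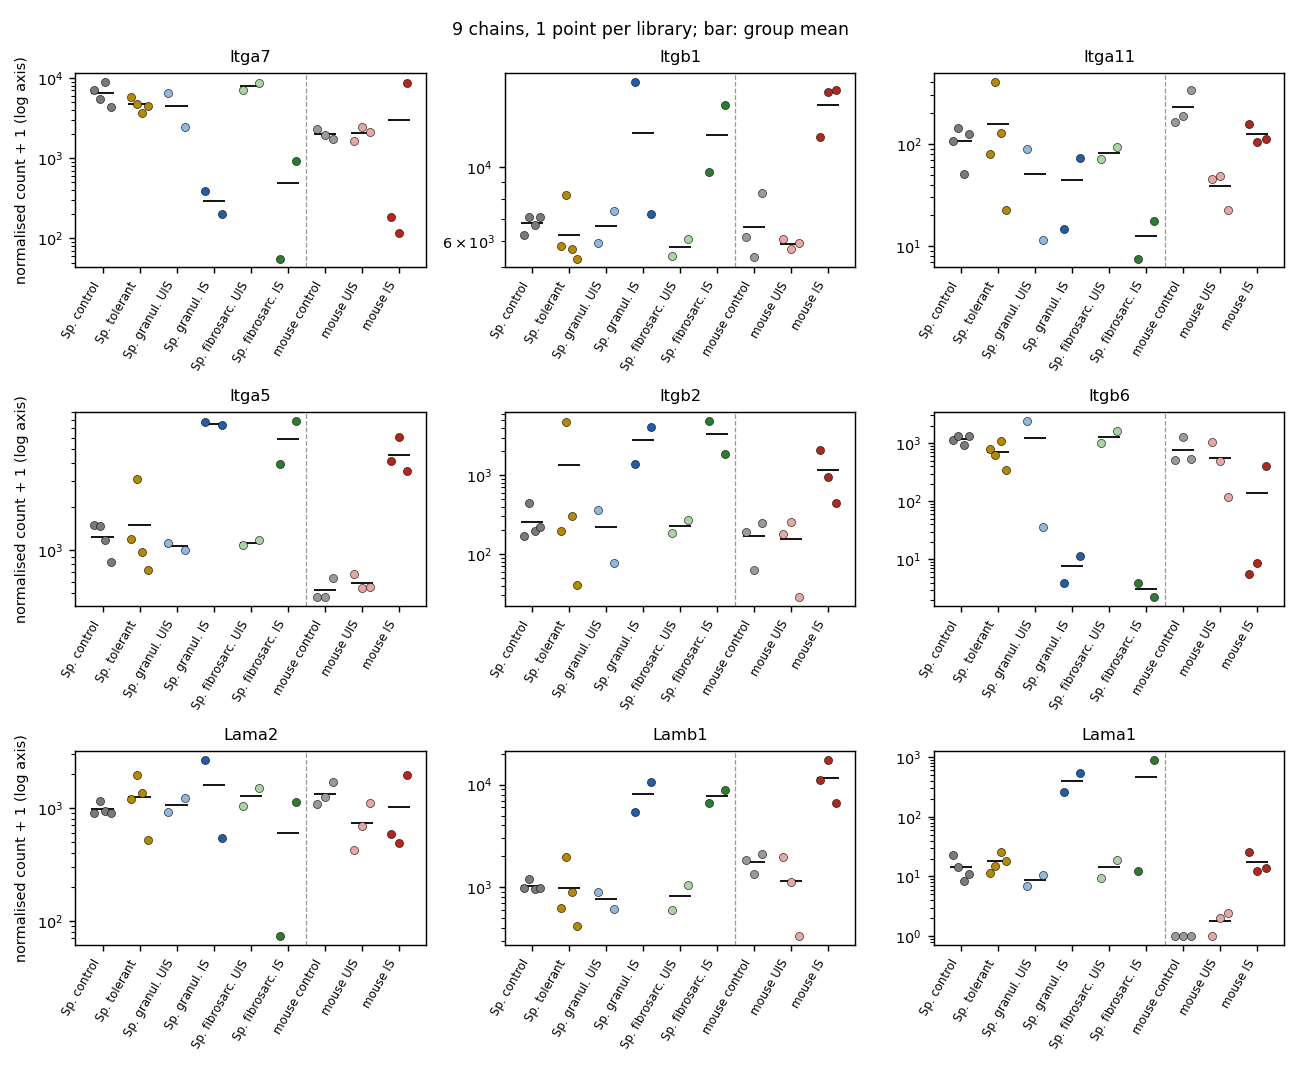
Normalised count + 1 on a log axis for 9 chains, with a point for each library, a bar for the group mean and a dashed line between *Spalax* and mouse. Itga5, Lamb1 and Itgb2 are high in the IS groups of both species, Itga7 and Itgb6 are low in all IS libraries but mouse 512, and Lama1 and Lama2 are spread widely between the 2 *Spalax* fibrosarcoma IS libraries.

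The 3 laminin chains of the muscle basement membrane did not move together. Lama2 encodes the alpha 2 chain, the loss of which causes a muscular dystrophy. Values in *Spalax* fibrosarcoma were 1041 (2230) and 1501 (2240) in UIS, but 72.0 in IS 2230 and 1118 in IS 2240. The tumors thus differed from each other, and the difference of -2.13 ± 1.34 missed the threshold (limma adjusted p = 0.272). In granuloma the values were 915 (600) and 1214 (976) in UIS and 2665 and 537 in IS, above the UIS values in 600 and below them in 976. In mouse they were 423, 685 and 1107 in UIS and 584, 491 and 1965 in IS, for 1019, 1023 and 512. Neither comparison was called (0.18 ± 0.78, adjusted p = 0.882 in granuloma and 0.27 ± 0.61, adjusted p = 0.742 in mouse).

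Lamb2, the beta 2 chain of muscle and synaptic basement membranes, fell in mouse IS from 2178 to 3085 in UIS to between 1041 and 1284, by 1.17 ± 0.23 (SE, n = 3 and 3; adjusted p = 0.00854 by limma). Scaled by total reads this difference was -0.10 (adjusted p = 0.662), since that scaling moved the median of all genes in this comparison from 0.11 to 1.21. In *Spalax* Lamb2 ranged from 1578 to 6799 in IS and from 2792 to 3516 in UIS and was not called. Lamc1, the gamma chain found in most laminins, rose by 1.81 ± 0.29 in mouse (adjusted p = 0.00495), from 1503 to 2165 in UIS to between 4697 and 8018. In *Spalax* it was not called in granuloma (0.98 ± 0.47, adjusted p = 0.177) or fibrosarcoma (1.09 ± 0.46, adjusted p = 0.129).

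Lamb1, the beta 1 chain of laminins of vessels and embryonic tissue, rose in all 3 comparisons. Its values in granuloma were 905 (600) and 617 (976) in UIS and 5365 and 10665 in IS. In *Spalax* fibrosarcoma they were 600 (2230) and 1054 (2240) in UIS and 6625 and 8799 in IS. In mouse they were 1982, 1122 and 333 in UIS and 10988, 17456 and 6585 in IS, for 1019, 1023 and 512. Each IS library lay above all control, tolerant and UIS libraries of its species. The rise was 3.34 ± 0.46 (adjusted p = 0.0116) in granuloma, 3.26 ± 0.37 (adjusted p = 0.00682) in *Spalax* fibrosarcoma and 3.58 ± 0.70 (adjusted p = 0.00878) in mouse. The endothelial markers (Pecam1, Cdh5 and others) summed to less in *Spalax* IS (3088 to 4762) than in *Spalax* UIS (8160 to 9520), and in mouse to 1607 to 10354 in IS and 7977 to 14329 in UIS, which overlapped. The fibroblast markers (Col1a1, Pdgfra and others) were higher in every IS library, with 846501 and 1836372 in granuloma IS against 13551 and 18493 in granuloma UIS. The part of either in the laminin values was not tested.

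The share of Lamb1 in laminin beta reads does not depend on the scaling of a library. It was 47.7% to 84.1% in the 4 *Spalax* IS libraries and 10.2% to 24.3% in the other 12. The mouse values were 85.4% to 93.1% in IS and 9.69% to 46.6% in control and UIS libraries. Among the gamma chains, Lamc1 held 83.2% or more of the reads in all 25 libraries.

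**Figure D4:**
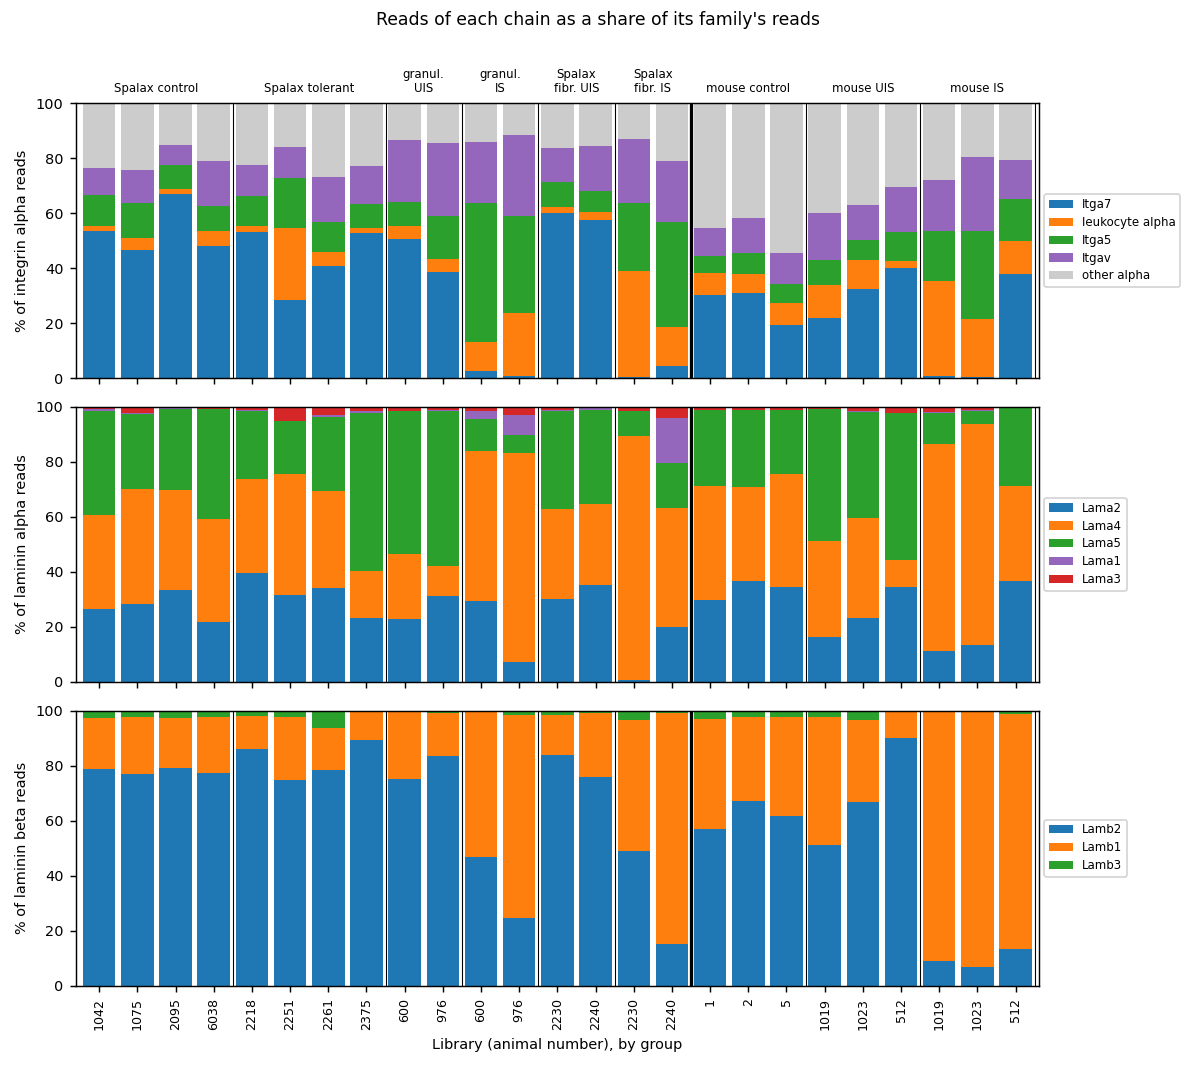
Reads of each chain as a percentage of the reads of its family in each library, for integrin alpha chains (top), laminin alpha chains (middle) and laminin beta chains (bottom). Itga7 (blue, top) falls to at most 4.53% in all IS libraries but mouse 512, at 37.8%, and Lamb1 (orange, bottom) holds at least 47.7% in IS.

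Among the other laminin alpha chains, Lama4 of vessels and mesenchyme rose in granuloma and in mouse. In granuloma it was 952 (600) and 412 (976) in UIS and 4932 and 5611 in IS (3.07 ± 0.48, adjusted p = 0.0149). Mouse libraries held 920, 1067 and 324 in UIS and 3883, 2959 and 1856 in IS, for 1019, 1023 and 512 (2.02 ± 0.52, adjusted p = 0.0208). Both IS groups lay above their UIS, although IS 512 was below mouse control 5 (2010). In *Spalax* fibrosarcoma the values were 1122 and 1261 in UIS and 10474 (2230) and 2397 (2240) in IS. They did not overlap, and the difference of 2.07 ± 0.74 missed the threshold (adjusted p = 0.0908).

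Lama1, a chain of early embryonic basement membranes, was close to 0 in adult muscle. In mouse it had no read in the 3 controls, and 0, 1 and 1 read in UIS of 1019, 1023 and 512. The IS libraries had 48, 19 and 24 reads. For this and the pooled ratios below, the reads of a group were summed and divided by its summed size factors. By this measure IS was 20.5 times UIS (95% counting interval 5.52 to 172, counting error only). The limma difference was 3.26 ± 0.57 (adjusted p = 0.00651). In granuloma Lama1 was 6.03 (600) and 9.42 (976) in UIS and 256 and 535 in IS, which lay far apart (5.44 ± 0.71, adjusted p = 0.0105).

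The *Spalax* fibrosarcomas differed from each other in Lama1. IS 2240 reached 896 against 18.2 in its UIS, whereas IS 2230 held 11.4 against 8.53. Across both animals the difference was 2.96 ± 2.13 (adjusted p = 0.328 by limma). Lama5, the alpha 5 chain of mature vessels and epithelia, was not a DEG in any comparison, and its differences were -1.58 ± 0.46 in granuloma (adjusted p = 0.0599), -0.44 ± 0.24 in *Spalax* fibrosarcoma (adjusted p = 0.212) and -1.31 ± 0.73 in mouse (adjusted p = 0.181).

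Lama3, a chain of epithelial laminin, rose in *Spalax* fibrosarcoma, from 42.7 (2230) and 26.7 (2240) in UIS to 167 and 232 in IS (2.51 ± 0.48, adjusted p = 0.0209). Its difference was 1.60 ± 0.59 in granuloma (adjusted p = 0.103) and -0.11 ± 0.83 in mouse (adjusted p = 0.924), and the interaction of species and side was not called (2.62 ± 1.18, adjusted p = 0.238). Lamb3, another such chain, was not called, with differences of 1.74 ± 1.02, 1.82 ± 0.92 and -1.29 ± 1.14 in granuloma, *Spalax* fibrosarcoma and mouse. In *Spalax* fibrosarcoma it lay at 477 in IS 2230 and 84.8 in IS 2240. Lamc3 rose in granuloma from 7.24 and 8.24 to 135 (600) and 82.2 (976), by 3.61 ± 0.71 (adjusted p = 0.0245). Lamb4 held at most 3.75 in any *Spalax* library and was under the filter.

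Itga5 encodes the alpha chain of the main fibronectin receptor and was a DEG in every tumor comparison. In granuloma it was 1118 (600) and 1005 (976) in UIS and 7745 and 7279 in IS. In *Spalax* fibrosarcoma it was 1078 (2230) and 1171 (2240) in UIS and 3946 and 7827 in IS. Its mouse values were 677, 545 and 551 in UIS and 4103, 6085 and 3496 in IS, for 1019, 1023 and 512. In each species the lowest IS value was above all other libraries, of which tolerant 2251 was the highest in *Spalax* (3091). The rise was 2.82 ± 0.31 (adjusted p = 0.00822), 2.31 ± 0.39 (adjusted p = 0.0159) and 2.91 ± 0.27 (adjusted p = 0.00140) by limma.

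Itgb3, the beta chain that pairs with alpha v in the vitronectin receptor, rose in the fibrosarcomas of both species. Its *Spalax* fibrosarcoma values were 29.9 (2230) and 25.5 (2240) in UIS and 366 and 161 in IS (3.09 ± 0.56, adjusted p = 0.0186). In mouse it was 150, 49.5 and 114 in UIS and 749, 1953 and 213 in IS, for 1019, 1023 and 512 (2.83 ± 0.85, adjusted p = 0.0345). These groups did not overlap. The *Spalax* call was lost in 1 model over all *Spalax* libraries (limma adjusted p = 0.0601). With the animal as a block the mouse call was lost (adjusted p = 0.0548). In granuloma it was 24.1 (600) and 5.89 (976) in UIS and 159 and 84.0 in IS, and the difference of 3.15 ± 0.91 was not called (adjusted p = 0.0593), while it was with the block (adjusted p = 0.0487).

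Of the other 5 matrix receptor chains, 3 rose in mouse and none was called in *Spalax*. Itgav, the alpha chain shared by most receptors of the RGD sequence, rose by 1.97 ± 0.27 (adjusted p = 0.00320), Itgb8, which with alpha v binds latent TGF-beta, by 2.25 ± 0.42 (adjusted p = 0.00779), and Itga9, a receptor chain for tenascin and osteopontin, by 1.4 ± 0.36 (adjusted p = 0.0215). In *Spalax* their differences lay between 0.02 and 1.75. Itgb5, which also pairs with alpha v, was not called. It went from 914 (2230) and 924 (2240) to 2780 in IS 2230 and 542 in IS 2240.

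Itga8, a receptor chain for nephronectin, had opposite signs in the growths of *Spalax*. It was 48.2 (600) and 44.8 (976) in granuloma UIS and 139 and 134 in IS, but 44.1 (2230) and 71.5 (2240) in fibrosarcoma UIS and 3.60 and 19.1 in IS. The differences were 1.53 ± 0.57 (adjusted p = 0.106) and -2.57 ± 0.88 (adjusted p = 0.0825), neither of which was called. Their own difference, the interaction, was -4.10 ± 1.10 with an adjusted p of 0.946.

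The collagen receptor chains were Itga1, Itga10 and Itga11. Itga11, a collagen receptor chain of fibroblasts, was 69.7 (2230) and 92.1 (2240) in *Spalax* fibrosarcoma UIS and 6.60 and 16.6 in IS. It fell by 2.81 ± 0.63 (adjusted p = 0.0301). In mouse it rose from 44.7, 47.4 and 21.6 in UIS to 155, 104 and 110 in IS, for 1019, 1023 and 512, by 1.73 ± 0.46 (adjusted p = 0.0241). Both pairs of groups lay apart, in opposite directions. The 3 mouse controls held 164, 187 and 332, above all mouse IS libraries, and the mouse UIS values were lower than these, although that difference (-2.56 ± 0.45) was not called (adjusted p = 0.293). In granuloma the values were 88.0 (600) and 10.6 (976) in UIS and 13.8 and 72.5 in IS, with no common direction (0.04 ± 1.32, adjusted p = 0.986).

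The difference of IS against UIS was itself compared between the species. Of 36 members tested 1 was called, Itga11, where 3.95% of all tested genes did, with a *Spalax* difference lower than that of mouse by -4.54 ± 0.81 (SE; adjusted p = 0.0273 by limma). This call was lost with the animal as a block (adjusted p = 0.0747), without either *Spalax* UIS library (adjusted p = 0.158 without 2240 and 0.139 without 2230), and without mouse UIS 1023 or IS 1023 (adjusted p = 0.0680 and 0.0664). Each species has its own table, normalisation and gene models. The Itga11 call of *Spalax* alone was lost when libraries were scaled by total reads (limma adjusted p = 0.0587). It was also lost with no filter (adjusted p = 0.0533) and in 1 model over all *Spalax* libraries (adjusted p = 0.0776). Fibroblast markers, among which Itga11 is not counted, were higher in every IS library than in the UIS library of the same animal, with a sum of 115887 and 428923 in *Spalax* fibrosarcoma IS and 141882 to 166803 in mouse IS. Itga1 and Itga10 were not called in any tumor comparison, with differences between -0.52 and 2.06.

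All 8 leukocyte integrin chains rose in *Spalax* fibrosarcoma, 3 of 8 rose in granuloma and 4 of the 7 that passed the filter in mouse, and none fell, where 17.4%, 11.7% and 22.8% of all genes rose. In 1 model over all *Spalax* libraries 5 of the 8 fibrosarcoma calls were lost (Itga4, Itgad, Itgae, Itgb2 and Itgb7, adjusted p = 0.0528 to 0.0992). All 3 granuloma calls (Itgal, Itgam and Itgb2) were lost by edgeR, with Itgal just over the threshold (adjusted p = 0.05002), and with no filter (adjusted p = 0.0534 to 0.0613). Itgb2, the beta chain shared by the leukocyte integrins LFA-1 and Mac-1, was 364 (600) and 75.4 (976) in granuloma UIS and 1384 and 4124 in IS. The *Spalax* fibrosarcoma libraries held 183 (2230) and 267 (2240) in UIS and 4868 and 1850 in IS. The mouse values were 177, 256 and 27.4 in UIS and 2071, 954 and 447 in IS, for 1019, 1023 and 512. All IS libraries lay above all UIS and control libraries of their species. The rise was 3.84 ± 0.90 (adjusted p = 0.0365), 3.76 ± 0.54 (adjusted p = 0.0113) and 3.14 ± 0.94 (adjusted p = 0.0347) by limma.

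Itgam, the alpha chain of Mac-1 on macrophages and neutrophils, followed the same order. It was 444 (600) and 154 (976) in granuloma UIS and 1149 and 3076 in IS. Values in *Spalax* fibrosarcoma were 165 (2230) and 269 (2240) in UIS and 4168 and 1708 in IS. Mouse libraries held 387, 335 and 53.3 in UIS and 4139, 2852 and 608 in IS, again with no overlap. Itgam rose by 2.84 ± 0.71 (adjusted p = 0.0425) in granuloma, by 3.66 ± 0.54 (adjusted p = 0.0116) in *Spalax* fibrosarcoma and by 3.33 ± 0.99 (adjusted p = 0.0338) in mouse. In granuloma the call was lost with the animal as a block (adjusted p = 0.0513). In the mouse annotation 68.7% of the Itgam exon bases also lie in another gene of the same strand, so that its mouse reads may have been split or left out in the counting.

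Itgal, the alpha chain of LFA-1, which binds ICAM proteins on lymphocytes' targets, was 73.6 (600) and 35.3 (976) in granuloma UIS and 235 and 525 in IS (2.76 ± 0.69, adjusted p = 0.0419, and 0.0597 with the animal as a block). In *Spalax* fibrosarcoma it was 45.5 (2230) and 65.5 (2240) in UIS and 600.3 and 389 in IS (3.12 ± 0.43, adjusted p = 0.0101). Its mouse values were 126, 168 and 20.2 in UIS and 1183, 335 and 180 in IS, for 1019, 1023 and 512. All 3 sets lay apart from their UIS. The mouse difference of 2.44 ± 1.00 was not called (adjusted p = 0.0879), while it was with the block (adjusted p = 0.0257).

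Itgax, the alpha chain that marks dendritic cells and some macrophages, had the largest rise among the leukocyte chains in *Spalax* fibrosarcoma, from 2.84 (2230) and 4.85 (2240) in UIS to 566 and 342 in IS (6.54 ± 0.54, adjusted p = 0.00415). In granuloma it was 3.62 (600) and 2.36 (976) in UIS and 21.1 and 286 in IS, a difference of 4.34 ± 1.35 that was not called (adjusted p = 0.0710). In mouse it was 93.1, 12.4 and 0 in UIS and 762, 303 and 732 in IS, for 1019, 1023 and 512 (5.68 ± 1.56, adjusted p = 0.0257). The mouse call was lost by edgeR (adjusted p = 0.0502) and in the consensus. With 0.1 rather than 1 added to the values it was lost too (limma adjusted p = 0.0559). The IS libraries were above the UIS libraries throughout. The *Spalax* UIS values rest on 2 to 4 reads in each library.

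Itga4, the chain of the VCAM-1 receptor of lymphocytes and monocytes, was 61.5 (600) and 8.24 (976) in granuloma UIS and 198 and 531 in IS (3.76 ± 1.10, adjusted p = 0.0607). In *Spalax* fibrosarcoma it rose from 25.6 (2230) and 43.6 (2240) to 528 and 280.3 (3.48 ± 0.54, adjusted p = 0.0130). In mouse it rose from 249, 231 and 57.6 to 1461, 446 and 1232 (2.63 ± 0.71, adjusted p = 0.0246). None of these groups overlapped. The chains Itgad, Itgae and Itgb7 rose in *Spalax* fibrosarcoma and were not called in granuloma, with rises of 3.29 ± 0.56 (adjusted p = 0.0164), 2.01 ± 0.50 (adjusted p = 0.0394) and 2.90 ± 0.43 (adjusted p = 0.0120). Itgae, which binds E-cadherin, lost its call with the animal as a block (adjusted p = 0.0681). In mouse Itgad was under the filter, at 0.593 to 1.05 in IS and 2.42 to 17.3 in UIS, and the Itgb7 difference of 2.47 ± 1.25 was not called (adjusted p = 0.148). It was called with the block (adjusted p = 0.0157), by DESeq2 (adjusted p = 0.0240) and without IS 512 (adjusted p = 0.0423).

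The leukocyte chains made up 2.30% to 4.82% of integrin alpha reads in the 4 *Spalax* UIS libraries and 10.8% to 38.5% in the 4 IS libraries. In mouse they made up 2.77% to 11.8% in UIS and 12.2% to 34.4% in IS. Such a share also depends on the other alpha chains, of which Itga7 was lower than in UIS in every IS library but mouse 512. Ptprc, the pan-leukocyte antigen CD45, was 33.0 to 309 in *Spalax* UIS and 605 to 2005 in *Spalax* IS, and 54.7 to 658 in mouse UIS and 956 to 7193 in mouse IS, with no overlap. The leukocyte marker list (Ptprc, Lyz2, Cd68 and others) held 12 genes in the *Spalax* and 13 in the mouse table, and its summed normalised count was 1270 to 4188 in *Spalax* UIS and 10621 to 15005 in *Spalax* IS. The mouse values were 942 to 17686 in UIS and 4726 to 38361 in IS, which overlapped, with UIS 1023 the highest of the former. Whether more leukocytes or more RNA per leukocyte lay behind the integrin values was not tested.

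**Figure D5:**
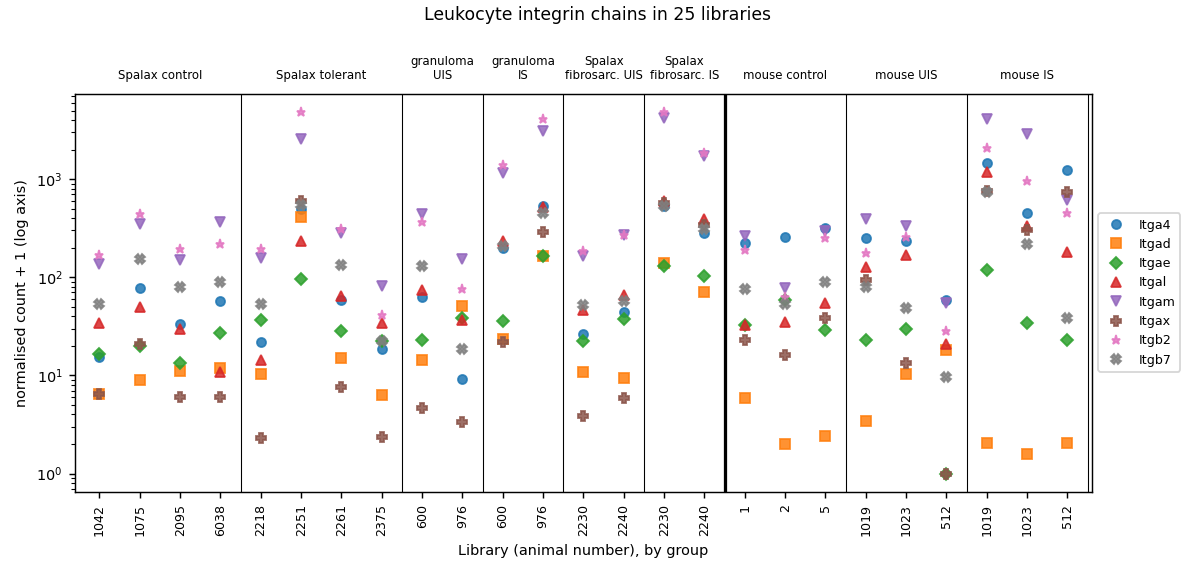
Normalised count + 1 on a log axis of the 8 leukocyte integrin chains in each library, by group. In tolerant 2251 Itgb2 is at 4773, close to the highest *Spalax* IS library (4868), and in the other 7 control and tolerant *Spalax* libraries Itgb2 is 438 or less.

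Of the chains known from epithelium and endothelium, Itgb6 stood out in muscle. Itgb6 encodes a beta chain that pairs with alpha v and is known from epithelium, yet its normalised count was 934 to 1338 in *Spalax* controls, 346 to 1105 in tolerant and 514 to 1262 in mouse controls. Epithelial markers (Krt5, Krt14, Epcam and others) summed to no more than 159 in the *Spalax* controls and 90.8 in the mouse controls. In *Spalax* fibrosarcoma Itgb6 was 985 (2230) and 1600 (2240) in UIS, and 5 and 2 reads remained in IS (3.00 and 1.23 normalised). It fell by 8.72 ± 0.56 (adjusted p = 0.00251 by limma), and pooled UIS was 620 times IS (95% counting interval 300 to 1544, counting error only).

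In granuloma Itgb6 was 2404 (600) and 35.3 (976) in UIS and 2.90 and 10.3 in IS. Both IS values lay below both UIS values, which differed widely from each other, and the difference of -5.48 ± 2.01 was not called (limma adjusted p = 0.103), but it was by DESeq2 (adjusted p = 2.77e-06), in 1 model over all *Spalax* libraries (adjusted p = 0.00442) and without UIS 976 (adjusted p = 0.0373), where UIS 600 stood alone and the IS pair gave the spread. Mouse libraries held 1063, 486 and 115 in UIS and 4.65, 7.71 and 406 in IS, for 1019, 1023 and 512. As with Itga7, IS 512 set itself apart from the other tumors, and the difference of -3.85 ± 1.72 (adjusted p = 0.111) became -5.80 (adjusted p = 0.0103) without it.

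Itga2, a collagen receptor chain of platelets and epithelium, rose in mouse from 3.63, 2.06 and 7.20 in UIS to 97.7, 377 and 14.7 in IS (4.10 ± 1.15, adjusted p = 0.0281). In *Spalax* it was at 13.0 or less in all UIS libraries, but reached 1734 in fibrosarcoma IS 2240 and 459 in granuloma IS 976, against 9.0 in IS 2230 and 29.0 in IS 600. Neither *Spalax* difference was called (adjusted p = 0.271 and 0.115). The same animals, 2240 and 976, also had the higher Lama1 of their group. In mouse the order differed, as IS 1023 had the highest Itga2 and the lowest Lama1 of the IS libraries. Itga3, a laminin receptor chain, rose in mouse by 1.5 ± 0.35 (adjusted p = 0.0153). Itga6 and Itgb4, which form the laminin receptor of hemidesmosomes, were not called, with differences of 0.69 to 1.09 for Itga6 and of -0.86 to 0.15 for Itgb4.

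Itga2b, the alpha chain of the platelet fibrinogen receptor, was read in *Spalax* muscle at 252 to 1042 in controls and 297 to 1403 in tolerant, and went in fibrosarcoma from 684 (2230) and 669 (2240) to 110 and 243 (-2.04 ± 0.47, adjusted p = 0.0316). In granuloma it was 478 (600) and 225 (976) in UIS and 79.9 and 66.5 in IS (-2.15 ± 0.59, adjusted p = 0.0519). The IS values lay below the UIS values in both. Its mouse values were 41.1 to 99.3 in all 9 libraries. The platelet markers in the *Spalax* table, Gp9 and Gp1bb, summed to no more than 31.2 in any *Spalax* library. The *Spalax* fibrosarcoma call was lost on scaling by total reads (adjusted p = 0.0821).

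The granuloma and the fibrosarcoma of *Spalax* were compared in 2 ways. In the interaction of growth and side, limma called none of 37 members (0% of all tested genes), with 4 at an unadjusted p under 0.05, and edgeR and DESeq2 called none. Between fibrosarcoma IS and granuloma IS directly, limma called none of 36 members (0% of all genes), with 3 at an unadjusted p under 0.05, edgeR called none, and DESeq2 called 2, Itga8 and Lamc3. Both were lower in fibrosarcoma IS, Itga8 by -3.83 ± 0.93 and Lamc3 by -3.16 ± 0.67 in the limma fit (adjusted p = 1.0 for both).

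Uninjected muscle of tumor-bearing animals was compared with that of untreated animals. In *Spalax*, none of 32 members differed between the 4 UIS and the 4 control libraries by limma (0% of all genes), 6 had an unadjusted p under 0.05, edgeR called none and DESeq2 called Itgb5 and Lamb3. Itgb5 was 756 to 924 in UIS and 1189 to 1382 in controls, a difference of -0.56 ± 0.15 (limma adjusted p = 0.198). Lamb3 was 21.7 to 66.8 in UIS and 114 to 142 in controls (-1.73 ± 0.35, adjusted p = 0.157). In mouse none of 34 members was called by limma (0% of all genes), 5 had an unadjusted p under 0.05, edgeR called none and DESeq2 called Itga11.

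Tolerant *Spalax*, which share the control libraries with the comparison above, differed from control in none of 34 members by limma (0% of all genes), with 1 at an unadjusted p under 0.05 and none by edgeR or DESeq2. The tolerant group was however not uniform. Tolerant 2251 had an Itgb2 of 4773, against 194 (2218), 308 (2261) and 40.2 (2375) in the others. Its Itgam was 2591 against 80.4 to 281, its Itgax 596 against 1.32 to 6.57, its Itgad 411 against 5.36 to 14.2, and its Itgb3 258 against 5.36 to 32.9. All of these exceeded every control library. Leukocyte chains made up 26.2% of its integrin alpha reads, against 1.87% to 5.05% in the other tolerant libraries.

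Other markers moved in tolerant 2251 too. The fibroblast markers summed to 185061, against 7358 to 41948 in the other tolerant libraries, and the epithelial markers to 685, against 46.3 to 52.6, with Krt14 at 265. Its Itga7 of 4790 lay within the range of the other tolerant libraries (3635 to 5825). Without 2251, limma still called none of the tested members against control. The part of these markers in the integrin values was not tested.

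The files give no gene lengths, and the shares of reads above are not corrected for them. Levels per length were compared between genes in mouse, per kb of the exons of GENCODE vM21. In control muscle Itgb1 was the highest chain, at 1622 ± 387 normalised counts per kb (SD, n = 3). Itgb5 followed at 562 ± 64.9, and among the alpha chains Itga7 at 245 ± 33.0 and Itga6 at 183 ± 48.0, whose libraries overlapped. Of the laminin chains, Lamb2 (510 ± 80.8) and Lamc1 (417 ± 141) overlapped, above Lamb1 (180 ± 39.4), Lama4 (130 ± 34.7), Lama5 (90.3 ± 8.51) and Lama2 (81.8 ± 19.1). In IS the order was another, with Itgb1 at 3785 ± 664, then Lamb1 (1177 ± 551), Itga5 (925 ± 274) and Lamc1 (808 ± 212), which overlapped each other. Itga7, at 368 ± 605, ranged from 14.4 to 1066.

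In the mouse genome (GRCm38) 4 of the leukocyte alpha chains lie on the same strand of chromosome 7. They are Itgal at chr7:127296260-127335138, Itgam at chr7:128062640-128118491, Itgax at chr7:128129547-128150657 and Itgad at chr7:128154376-128223816, all protein-coding genes of the plus strand. Of these neighbors, Itgam and Itgax rose in mouse IS while Itgad was close to 0 there. Their common beta chain, Itgb2, lies at chr10:77530252-77565708, and Itga7 lies on the same chromosome at chr10:128933818-128958282.

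The partners of these chains were read from lists of 66 genes. In the dystroglycan and sarcoglycan complex, the second laminin anchor of the muscle fiber, 6 of 14 genes fell and 1 rose in granuloma, 11 fell in *Spalax* fibrosarcoma, and 7 fell and 2 rose in mouse. Of all genes, 12.6% fell and 11.7% rose in granuloma, 19% fell and 17.4% rose in *Spalax* fibrosarcoma, and 22.3% fell and 22.8% rose in mouse, against which the counts of all 4 partner lists are to be read. The median log2 fold changes were -2.17, -2.72 and -1.90. Sgca, the muscle-specific alpha-sarcoglycan, was 4986 to 6946 in *Spalax* UIS and 14.5 or less in *Spalax* IS, and changed by -10.61 ± 1.30 (adjusted p = 0.00927) in granuloma, -11.15 ± 0.52 (adjusted p = 0.00131) in *Spalax* fibrosarcoma and -7.56 ± 1.53 (adjusted p = 0.00984) in mouse. Only 5 Sgca reads remained in *Spalax* fibrosarcoma IS, where pooled UIS was 3536 times IS (95% counting interval 1515 to 10894). The muscle marker sums given above moved in the same libraries.

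Among 12 basement membrane partners of laminin, 5 rose in granuloma and none fell, 3 rose and 2 fell in *Spalax* fibrosarcoma, and 8 of the 11 tested rose and 2 fell in mouse. The *Spalax* fibrosarcoma counts are near the shares of all genes (17.4% higher and 19% lower). Col18a1, which encodes collagen XVIII, rose by 4.10 ± 0.36 (adjusted p = 0.00578), 2.35 ± 0.24 (adjusted p = 0.00563) and 4.43 ± 0.59 (adjusted p = 0.00307). Col4a1, a chain of the ubiquitous collagen IV network, rose by 2.46 ± 0.36 (adjusted p = 0.0133), 2.01 ± 0.55 (adjusted p = 0.0492) and 1.52 ± 0.39 (adjusted p = 0.0211). Col4a3 and Col4a4, chains of another collagen IV, moved the other way. Col4a3 fell by 4.41 ± 0.84 in *Spalax* fibrosarcoma (adjusted p = 0.0209) and by 3.36 ± 0.46 in mouse (adjusted p = 0.00318), with -3.72 ± 1.29 in granuloma (adjusted p = 0.0918). Col4a4 changed by -2.58 ± 0.53 (adjusted p = 0.0249) and -2.99 ± 0.64 (adjusted p = 0.0118), with -3.26 ± 1.14 in granuloma (adjusted p = 0.0924).

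The integrin adaptors, which link the tails of the receptors to actin, were split. Of 24 genes, 5 rose and 4 fell in granuloma, 7 of 23 rose and 7 fell in *Spalax* fibrosarcoma, and 10 of 22 rose and 6 fell in mouse. The falls in granuloma and mouse are near the shares of all genes that fell (12.6% and 22.3%). Itgb1bp2 (melusin), a muscle protein that binds the beta 1 tail, changed by -6.89 ± 0.68 (adjusted p = 0.00660), -9.08 ± 0.44 (adjusted p = 0.00140) and -4.74 ± 1.46 (adjusted p = 0.0373). Flnc, the filamin of muscle, changed by -4.50 ± 0.57 (adjusted p = 0.00970), -4.22 ± 0.43 (adjusted p = 0.00572) and -2.75 ± 0.76 (adjusted p = 0.0259), while Flna, the filamin of most other cells, rose by 3.33 ± 0.40 (adjusted p = 0.00894), 3.00 ± 0.40 (adjusted p = 0.00942) and 2.73 ± 0.33 (adjusted p = 0.00240). Parvg, the parvin of leukocytes, rose by 3.27 ± 0.56 in *Spalax* fibrosarcoma (adjusted p = 0.0160) and 2.20 ± 0.59 in mouse (adjusted p = 0.0239), with 3.51 ± 1.28 in granuloma (adjusted p = 0.102).

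Of 16 integrin ligands, 8 of the 13 tested rose and 1 fell in granuloma, 4 of 14 rose in *Spalax* fibrosarcoma, and 10 of 15 rose and 1 fell in mouse (11.7%, 17.4% and 22.8% of all genes rose), with medians of 3.15, 2.23 and 3.26. Postn (periostin), a ligand of alpha v integrins, was 31.8 to 72.4 in granuloma UIS and 79754 to 214855 in granuloma IS. It rose by 11.38 ± 0.64 (adjusted p = 0.00471) there, by 3.70 ± 0.51 (adjusted p = 0.0102) in *Spalax* fibrosarcoma and by 5.14 ± 1.21 (adjusted p = 0.0157) in mouse. Thbs1 (thrombospondin 1) rose by 3.50 ± 0.40 in *Spalax* fibrosarcoma (adjusted p = 0.00694) and 3.28 ± 0.31 in mouse (adjusted p = 0.00142), with 2.67 ± 0.92 in granuloma (adjusted p = 0.0903).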

How the data were processed

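RNA-seq of 25 libraries was used. The authors made strand-specific single-end libraries, trimmed reads with Trimmomatic, aligned them with TopHat2 (TopHat 1.4.1 in the submitters' processing notes) to the published *Spalax* genome or an NCBI mouse genome (GRCm38 in those notes), and counted them per gene with htseq-count; the strand setting is not given in the sources used here. What the authors deposited is a signal, made from read counts by division with a size factor of each library, in 1 table per species. Commas stand for a lower-case t in 2387 *Spalax* gene names and shift the fields of those lines, so the last fields of a line were taken as its values and the t was restored. All values came out as whole reads after division by the value of 1 read (tolerance 0.1 read), and these recovered reads gave depth and the count tests.

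Because such a signal is not a count, groups were compared with limma 3.58.1 (R 4.3.3) on log2(value + 1) with a mean-variance trend, on the libraries compared and without covariates. A gene was tested if it reached 10 in a number of libraries equal to the size of the smaller group (for the interaction of species, in 2 libraries of each table). The size of the group was that before any library was left out. Since 1 was added, fold changes understate the change of low genes. Alternatives were edgeR 4.0.16, DESeq2 1.42.0, their consensus, a pseudocount of 0.1, no filter, scaling by total reads, the animal as a block, 1 model over all libraries of a species, and each library left out. The limma fits of the tumor comparisons were also run on simulated counts with a fixed dispersion and no animal effects. Such counts are simpler than these data, and no error rate of the calls here was drawn from them. No pair of replicates was a copy of another (chi-square per degree of freedom at least 48.1 over 25 pairs).

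IS and UIS libraries of a growth carry the same animal number in the labels, which is the source of the pairing. The correlation of their deviations from the group means was 0.01 in both granuloma animals, 0.00 in both fibrosarcoma *Spalax* and 0.13, 0.05 and 0.18 in mice 1019, 1023 and 512.

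The members and lists were chosen with earlier results of these data known. Members are named, apart from items that are not reported here. Values in every library are given for members called in at least 2 of the 3 tumor comparisons or in an interaction and for Itga7, Itgb1, Itgb2 and Lama2, with others added after their values were seen. Of each partner list the 2 largest rises and 2 largest falls among DEGs of *Spalax* fibrosarcoma are named, with the same exception. Members were grouped by the cells they are known from. Python 3.11.15 and matplotlib 3.10.9 were used for figures. Reads carry no molecular identifiers. The number of samples and, for genes near the filter, the depth limit precision.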

Additional observations from a re-analysis of the deposited data

Results flagged for a closer look

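Within the 4 tolerant *Spalax*, library 2251 lay far from the others for 7 members, as the gap to its neighbor divided by the range showed. The ratio was 0.991 for Itgax, 0.978 for Itgad, 0.943 for Itgb2, 0.92 for Itgam, 0.916 for Itga4, 0.891 for Itgb3 and 0.835 for Itgb1, with 2251 the highest each time. Within the 4 controls, animal 1075 was the far and highest library for Itgax (0.963), Lamc3 (0.919), Lamb1 (0.893), Lama2 (0.883) and Lama3 (0.843). Control 2095 was lowest for Itgb4 (0.9) and control 6038 lowest for Itga2b (0.884). Over the 4 UIS libraries of both *Spalax* growths, 976 was highest for Itgad (0.883) and 2240 for Itga8 (0.848). Such gaps were found 16 times in 108 sets of 4. For independent, normally distributed values they come in about 1 in 20 groups. That rate need not hold here, since normalised counts were used without a log and the sets share libraries. Library 2251 alone gave 7 of the 16.

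Itga11 differed between species in IS against UIS, with a tested difference of -4.54 (adjusted p = 0.0273 by limma). In 2 members every animal with granuloma moved in the opposite direction from every *Spalax* with fibrosarcoma, by a difference of the means of 4.10 for Itga8 and 1.37 for Itga1. For these signs themselves no test was made, and the interaction in the model called neither member.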

How the results depend on the processing

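With 2 or 3 animals in a group, calls depended on single libraries. Leaving out 1 library gave 4 to 12 members called in granuloma (9 with all), 0 to 27 in *Spalax* fibrosarcoma (16), 8 to 18 in mouse (19) and 0 to 2 in the interaction of species (1). In an alternative chosen after seeing the data, both libraries of a mouse were left out, and 6 members were called without 1019, 0 without 1023 and 18 without 512. Itga2 and Lama1 were under the filter in each of these fits and were not tested. Without a granuloma IS library Lama1 and Lamc3 were under the filter, and without a *Spalax* fibrosarcoma IS library Itgax was. DESeq2 called 20 members in granuloma, 4 in the interaction of species (Itga11, Itga2b, Itga8 and Itgb6), 2 between fibrosarcoma IS and granuloma IS, 2 between *Spalax* control and UIS and 1 between mouse control and UIS. Scaling by total reads called 20 in granuloma. That scaling moved the median of all genes from -0.01 to 0.73 in granuloma, from 0.03 to 0.86 in *Spalax* fibrosarcoma and from 0.11 to 1.21 in mouse. With no filter 2 members were called in the interaction of species (Itga11 and Itgad), and 1 model over all *Spalax* libraries called 1 (Itga8) between fibrosarcoma IS and granuloma IS. With the animal as a block, 8 members were called in granuloma, 15 in *Spalax* fibrosarcoma, 19 in mouse and 0 in the interaction of species; beside the calls named in the report the block changed 1. In *Spalax* fibrosarcoma 2 directions reversed. Leaving out 1 library gave a Lamb2 difference of -1.15 to 0.96, the latter without IS 2240 (adjusted p = 0.00340 by limma), and an Itgb5 difference of -0.76 to 1.60, the former without IS 2230 (adjusted p = 0.0123). In these fits IS held 1 library and only the UIS pair gave the spread, so that they describe a single tumor. The cause of these changes was not tested.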

Other observations

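Itgb2 was set beside Ptprc, another gene of all leukocytes, within each library. The ratio of the normalised counts of Itgb2 and Ptprc was 2.24 and 2.29 in the granuloma IS libraries, 1.79 and 2.43 in *Spalax* fibrosarcoma IS, and 2.70 in tolerant 2251, within the range of the *Spalax* control, UIS and other tolerant libraries (0.714 to 2.77). In mouse the ratio was 0.288 to 0.467 in IS, 0.268 to 0.500 in UIS and 0.374 to 1.05 in controls. The species rest on different gene models, so their ratios are not compared.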
